A study of Mus musculus with 4 samples.

Results

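The ephrins, semaphorins and netrins, with their Eph, plexin, neuropilin and netrin receptors, were followed in cultured motor neurons derived from mouse embryonic stem cells, in which doxycycline switches on a transgene for a transcription factor. The members were taken by gene symbol from the deposited table of normalized read counts, and 54 of its 11747 rows matched. They comprise 18 semaphorins (5 of the secreted class 3 and 13 of classes 4 to 7), 8 plexins, 1 neuropilin, 5 ephrin-A and 3 ephrin-B ligands, 7 EphA and 5 EphB receptors, 2 netrins and 5 netrin receptors, that is 28 ligands and 26 receptors. Both groups consist of cells of the same engineered line, derived from A172LoxP embryonic stem cells. Both were grown as embryoid bodies, floating cell aggregates, and patterned for 2 days with 1 µM purmorphamine, which activates the Sonic hedgehog pathway, together with all-trans retinoic acid at 0.5 µM. One group then received 2 µg/mL doxycycline and the other vehicle for 2 to 3 further days. Each group has 2 libraries, numbered 1 and 7 without and 2 and 8 with doxycycline. The labels do not say whether the line is a single clone or whether 2 libraries of one group stem from different cultures, so the p-values cover only library-to-library spread, possibly technical. Cells given doxycycline without the transgene were not analysed here, so the drug and the induced factor cannot be told apart.

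These families steer growing axons and migrating cells. Ephrins are membrane-bound ligands of the Eph receptor tyrosine kinases: ephrin-A ligands are held by a lipid anchor and bind mainly EphA receptors, ephrin-B ligands span the membrane and bind mainly EphB receptors. Semaphorins signal through plexins, and most secreted class 3 semaphorins need a neuropilin as co-receptor. Netrins attract axons through Dcc and neogenin and repel them through the Unc5 receptors. In the developing spinal cord netrin-1 comes largely from the floor plate and the progenitor zone, and motor axons use Eph receptors and neuropilins to choose their path into the limb.

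The libraries held between 22434755 and 30235763 estimated reads, and the members between 59 and 9778 estimated reads in a library. The cultures carried the labelled cell type's markers. Of 10 motor neuron genes 9 were listed, while the choline transporter gene Slc5a7 was not. Their summed normalized counts were 14274 to 15082 without and 5520 to 6379 with doxycycline. These sums do not give the share of motor neurons among the cells. Libraries differed within groups as well. Of 10 endoderm genes 8 were listed, without Afp and Ttr. The 8 summed to 172098 (library 1) and 312595 (library 7) without doxycycline, and to 132714 (library 2) and 294992 (library 8) with it. Most of each sum came from Lama1, Lamb1 and Sparc, at 65467, 38585 and 57687 in library 1. Each of the 8 genes was higher in libraries 7 and 8 than in 1 and 2. These genes' levels therefore separated libraries 7 and 8 from 1 and 2 rather than the groups. The part of endoderm cells in the members' values was not tested. The samples are bulk RNA, in which fewer cells of a type and less RNA per cell cannot be told apart.

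With doxycycline 4 of the 54 guidance genes fell and none rose. Those that fell were Sema3d, Sema5a, Ephb1 and Nrp2, a secreted semaphorin, a transmembrane semaphorin, an Eph receptor and a neuropilin. Over all rows limma called 2.37%, with 1.79% lower and 0.579% higher (adjusted p under 0.05). At an unadjusted p under 0.05 there were 20 members, 15 lower and 5 higher, beside 21.1% of all rows (11.5% lower and 9.58% higher). In 35 members the 2 groups did not overlap, 19 lower and 16 higher with doxycycline, which is 64.8% of members beside 53.2% of all rows. A log2 difference of at least 0.5 in size was measured in 13 members, 24.1% of them, beside 7.45% of all rows. Of these 13, 10 lay lower and 3 higher, beside 515 lower and 360 higher over all rows. Counting differences of any size, 27 members lay above and 27 below 0, so the members' median was -0.01 (0.00 over all rows). Leaving out library 1, 7, 2 or 8 put 21, 26, 27 and 23 members above 0. The median size was 0.24 in members against 0.13 over all rows. The median SE was larger in members as well, at 0.126 against 0.098, and its part in these sizes was not tested. Leaving out library 1, 7, 2 or 8 gave 2, 9, 2 and 0 member calls, beside 1.13%, 4.21%, 0.962% and 0.375% of all rows.

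**Figure D1:**
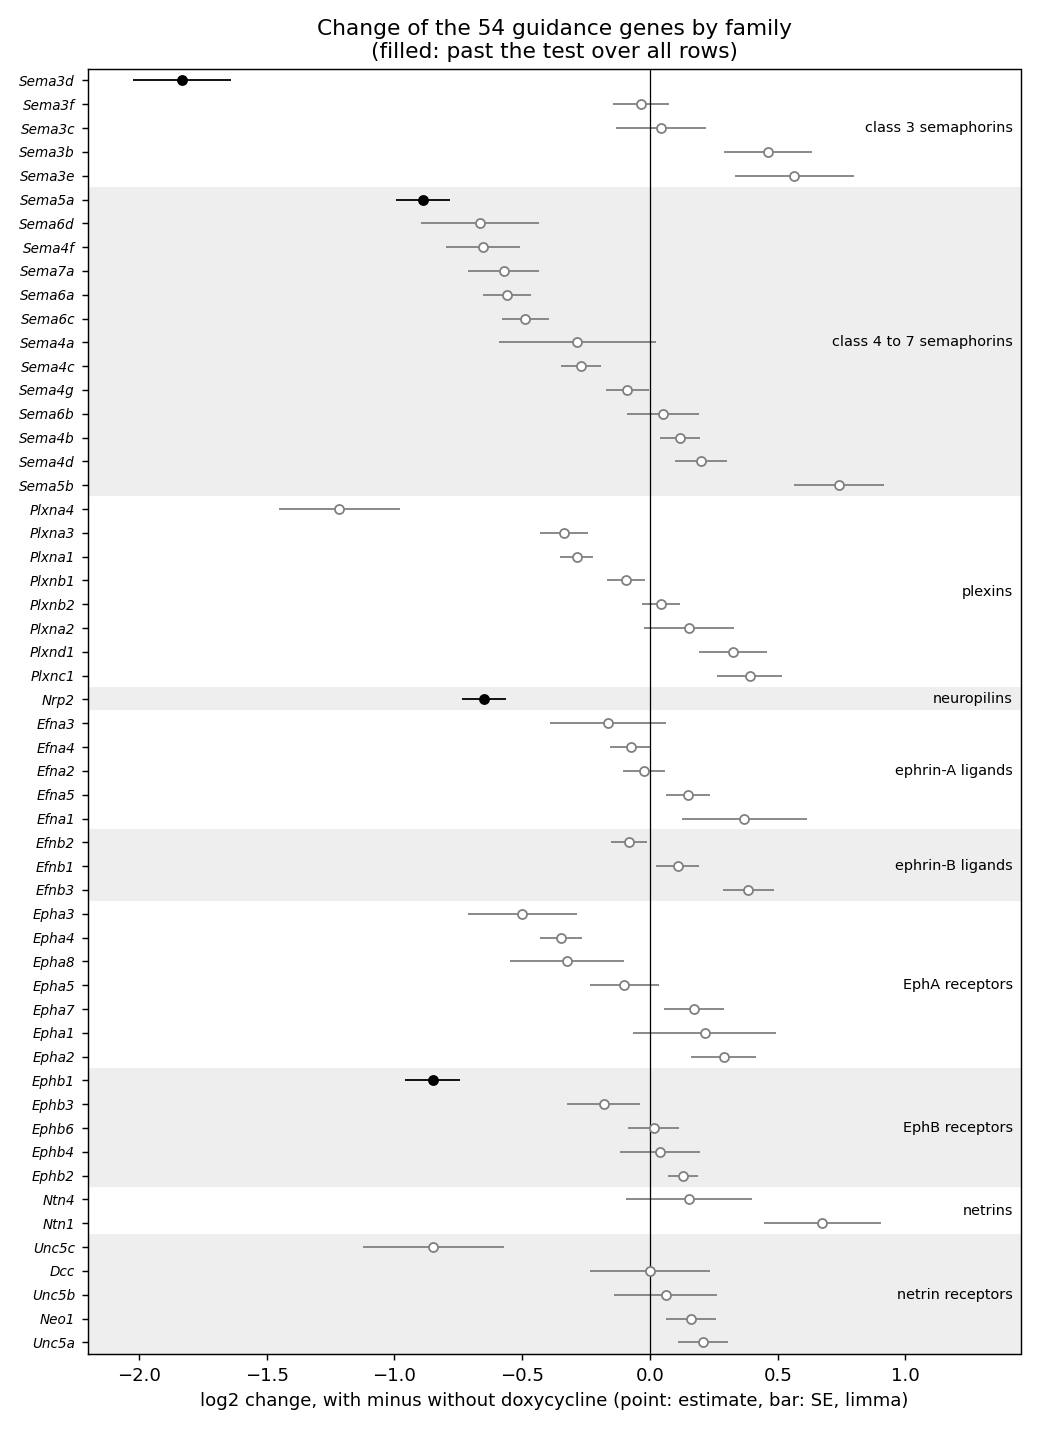
Log2 change of each of the 54 guidance genes, with minus without doxycycline, grouped by family; points are estimates from 2 libraries per group, bars are standard errors from limma, and filled points passed the test over all rows. The 4 filled points lie at -1.83, -0.89, -0.85 and -0.65, and members of 1 family lie on both sides of 0 in each family except the netrins and the single neuropilin.

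Among the secreted semaphorins, which diffuse from their source and mostly repel axons, Sema3d stood apart. Sema3d was at 982 and 1429 normalized counts without doxycycline (libraries 1 and 7, the order used throughout) and at 360 and 307 with it (libraries 2 and 8). Both libraries with doxycycline lay far below both without it. The log2 change was -1.83 ± 0.19 (SE, n = 2 libraries per group; limma, adjusted p = 0.0207), a 3.56-fold lower level. Sema3d was the one member called that changed more than 2-fold, and its call was lost without library 8 (limma, adjusted p = 0.0766). The other 4 listed class 3 genes did not pass. Sema3b was at 155 and 168 without and 199 and 247 with doxycycline, a log2 difference of 0.46 ± 0.17 (limma, unadjusted p = 0.0382, adjusted p = 0.21) that was 0.31 without library 8. Sema3e, a ligand that binds plexin D1 without a neuropilin, was at 93.8 and 92.3 without and 163 and 117 with doxycycline (0.56 ± 0.23). Sema3f, a ligand of neuropilin-2 and the class 3 gene with the highest mean over the 4 libraries, although Sema3d was higher without doxycycline, was at 873 and 920 without and 956 and 800 with doxycycline, so its groups overlapped. Sema3c (0.04 ± 0.18) overlapped too. The row for Sema3a carries no symbol in the table and is no member by the rule, but its accession names it; it was at 282 and 311 without and 304 and 280 with doxycycline.

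Of the 13 membrane-bound semaphorins of classes 4 to 7, 9 had values below 0, beside 5803 of all 11747 rows. Their median was -0.28. Of the 9, 1 passed the test, that is 7.69% of the 13 beside 2.37% of all rows. Sema5a, a transmembrane semaphorin with thrombospondin repeats, was at 682 and 654 normalized counts without and 380 and 342 with doxycycline. The libraries of a group lay close together here, and the groups were well apart. Sema5a fell by 0.89 ± 0.11 on the log2 scale (limma, adjusted p = 0.0242). Its call was lost without library 1, 2 or 8 (limma, adjusted p = 0.0533, 0.0531 and 0.112). Sema5b, the other class 5 gene, had a value in the opposite direction. It was at 797 and 1046 without and 1339 and 1741 with doxycycline, with no overlap and a log2 difference of 0.74 ± 0.18 (limma, adjusted p = 0.095). Whether the difference between these 2 genes exceeds their spread was not tested.

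Of the 4 class 6 genes, ligands of A-type plexins, 3 lay lower in both libraries with doxycycline, as 26.5% of all rows did, and none passed. Sema6a missed the threshold by little, at 3673 and 3205 without and 2213 and 2451 with doxycycline (-0.56 ± 0.10; limma, adjusted p = 0.0501). Sema6c was at 3562 and 3120 without and 2484 and 2276 with doxycycline (-0.49 ± 0.09; limma, adjusted p = 0.0611). Sema6d was at 1431 and 1846 without and 817 and 1283 with doxycycline, so the groups did not overlap, but libraries within a group were further apart than the nearest libraries of different groups. Its log2 difference was -0.67 ± 0.23 (limma, adjusted p = 0.184), and -0.34 without library 2. Sema6b (0.05 ± 0.14) overlapped. Sema7a, a lipid-anchored semaphorin that binds plexin C1, was at 567 and 472 without and 373 and 325 with doxycycline (-0.57 ± 0.14). Of the 6 class 4 genes Sema4f was at 431 and 382 without and 283 and 235 with doxycycline (-0.65 ± 0.15), and Sema4c, a ligand of plexin B2, at 3938 and 4078 against 3144 and 3511 (-0.27 ± 0.08). Neither passed (limma, adjusted p = 0.0845 and 0.136). Sema4d, a ligand of plexin B1, had a value of 0.20 ± 0.10, Sema4b one of 0.12 ± 0.08, Sema4g one of -0.09 ± 0.08 and Sema4a one of -0.28 ± 0.31.

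On the receptor side Nrp2, which pairs with A-type plexins to receive class 3 semaphorins, was at 2139 and 2275 without and 1484 and 1330 with doxycycline. The groups were separated by more than the spread within either. Nrp2 fell by 0.65 ± 0.09 on the log2 scale (limma, adjusted p = 0.0301), to a level 1.57-fold lower, and lost its call without library 2 or 8 (adjusted p = 0.0527 and 0.126). None of the 8 plexins passed. The A-type plexins, signalling partners of the neuropilins, had 3 of 4 values below 0. Plxna4 had the largest of them, at 778 and 597 without and 364 and 236 with doxycycline, a log2 difference of -1.22 ± 0.24 (limma, adjusted p = 0.0649). The difference was larger in size than that of 3 of the 4 genes called, but libraries within a group were further apart. Plxna3 was at 4012 and 3502 without and 3117 and 2823 with doxycycline (-0.34 ± 0.09), and Plxna1 at 8738 and 8237 without and 7167 and 6747 with doxycycline (-0.29 ± 0.07). Both pairs of groups were apart, and neither gene passed (limma, adjusted p = 0.129 and 0.0889). Plxna2 was at 2332 and 1658 without and 2392 and 1993 with doxycycline, so its groups overlapped (0.15 ± 0.18).

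The remaining plexins lay near or above 0. Plxnc1 was at 373 and 348 without and 435 and 513 with doxycycline, a log2 difference of 0.39 ± 0.13 (limma, adjusted p = 0.165). Plxnd1 was at 719 and 801 without and 848 and 1064 with doxycycline (0.32 ± 0.13). The B-type plexins, receptors of class 4 semaphorins, had overlapping groups: Plxnb1 gave -0.09 ± 0.08, and Plxnb2, the plexin with the highest mean over the 4 libraries, gave 0.04 ± 0.07 from 7388 and 7986 without and 7585 and 8273 with doxycycline.

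**Figure D2:**
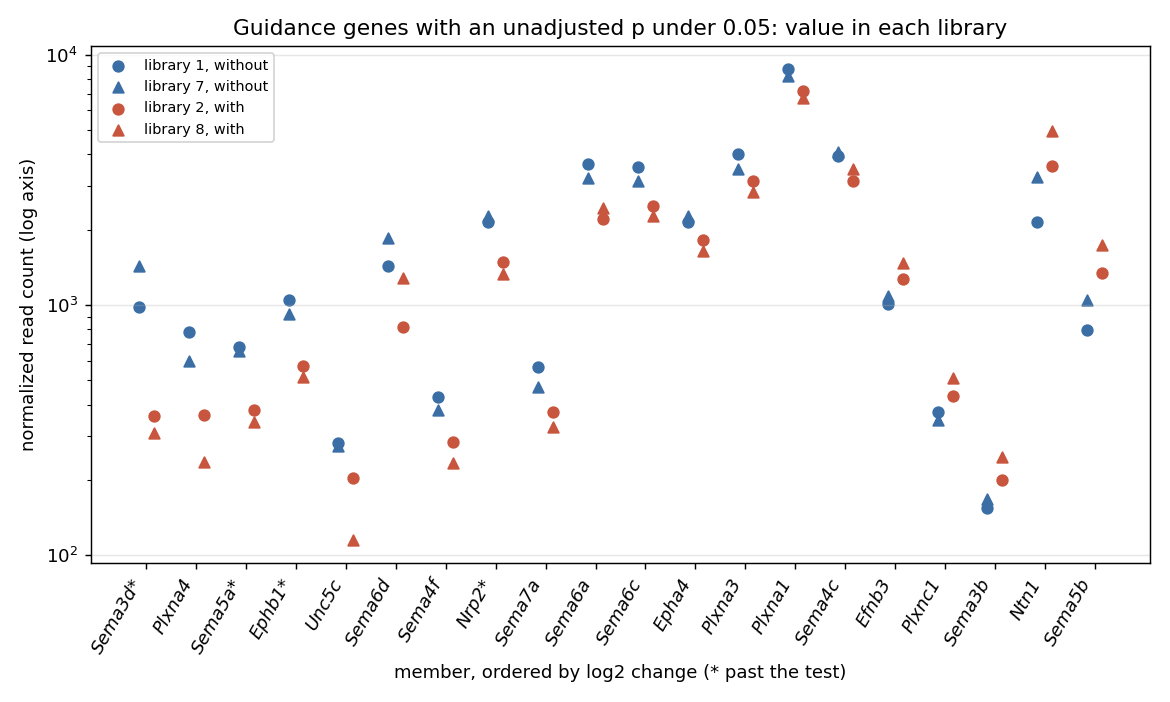
Normalized read count in each of the 4 libraries, on a log axis, for the 20 guidance genes with an unadjusted p under 0.05, ordered by log2 change; blue points are libraries 1 and 7 without and red points libraries 2 and 8 with doxycycline. In Sema3d both red points, 360 and 307, lie below both blue points, 982 and 1429, and in Ntn1 library 7 at 3245 comes close to library 2 at 3599.

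In the ephrin system 1 receptor fell and no ligand passed the test, that is 5.0% of 20 genes beside 2.37% of all rows. Whether receptors and ligands differ was not tested. Ephb1, an EphB receptor used by limb motor axons, was at 1043 and 919 without and 571 and 516 with doxycycline. Both libraries with doxycycline lay well below both without it. Ephb1 fell by 0.85 ± 0.11 on the log2 scale (limma, adjusted p = 0.0276). Its call was lost without library 1, 2 or 8 (limma, adjusted p = 0.0533, 0.0602 and 0.125). The 4 other EphB receptors did not pass. Ephb2 had the highest counts of the EphB receptors, at 3742 and 3748 without and 4086 and 4110 with doxycycline, so the groups were apart by a small and even step (0.13 ± 0.06; limma, adjusted p = 0.284). Ephb3 (-0.18 ± 0.14), Ephb4 (0.04 ± 0.15) and Ephb6 (0.01 ± 0.10) overlapped between groups. Ephb4 differed more within than between groups, being at 1928 and 2431 without and 1974 and 2505 with doxycycline.

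None of the 7 EphA receptors passed. Epha4, a receptor of both ephrin classes that directs motor axons in the limb and holds back midline crossing of spinal interneuron axons, was at 2140 and 2260 without and 1821 and 1640 with doxycycline. The groups did not overlap, and the log2 difference was -0.35 ± 0.08 (limma, unadjusted p = 0.00618, adjusted p = 0.0975). Epha3 was at 285 and 267 without and 238 and 160 with doxycycline (-0.50 ± 0.21), Epha8 at 105 and 112 against 77.8 and 96.2 (-0.32 ± 0.22), and Epha5 overlapped (-0.10 ± 0.13). Values above 0 were measured for Epha2 (0.29 ± 0.13), Epha7 (0.17 ± 0.12) and Epha1 (0.21 ± 0.28). Epha10, whose row has no symbol in the table, was at 1097 and 659 without and 834 and 743 with doxycycline.

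The 8 ephrin genes ranged from -0.17 to 0.38 and none passed. Efnb3, a midline ephrin known as a ligand of Epha4, was at 1009 and 1088 without and 1274 and 1467 with doxycycline, the one ephrin with an unadjusted p under 0.05 (0.38 ± 0.10; limma, adjusted p = 0.114). Efnb2, with the highest counts of the ephrin-B genes, was at 2207 and 2130 without and 2091 and 2008 with doxycycline (-0.08 ± 0.07). Efnb1 gave 0.11 ± 0.08. Of the ephrin-A genes Efna5 had the highest counts, at 1501 and 1335 without and 1564 and 1574 with doxycycline (0.15 ± 0.09). Efna1 (0.37 ± 0.25) rests on fewer reads, at 76.9 and 89.1 without and 93.1 and 123 with doxycycline. Efna2, Efna3 and Efna4 gave -0.02 ± 0.08, -0.17 ± 0.23 and -0.08 ± 0.08.

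In the netrin system none of the 7 genes passed, beside 2.37% of all rows called. The 2 members with an unadjusted p under 0.05 lay in opposite directions. Ntn1, which encodes netrin-1, was at 2153 and 3245 without and 3599 and 4950 with doxycycline. Both libraries with doxycycline were higher, but libraries 1 and 7 differed from each other by 50.7%, and library 7 lay near library 2. The log2 difference was 0.68 ± 0.23 (limma, unadjusted p = 0.026, adjusted p = 0.178), and it was 0.38 without library 1 and 0.45 without library 8. Unc5c, a repulsive netrin receptor, was at 281 and 274 without and 204 and 116 with doxycycline (-0.85 ± 0.28; limma, adjusted p = 0.167), a difference of -0.44 without library 8. Unc5a, of the same receptor type, was at 3028 and 2750 without and 3091 and 3592 with doxycycline (0.21 ± 0.10), with no overlap. Unc5b gave 0.06 ± 0.20. The attractive receptors overlapped between groups: Neo1, which encodes neogenin and has the highest counts of the netrin receptors, was at 7821 and 6985 without and 8909 and 7664 with doxycycline, and Dcc at 219 and 346 without and 256 and 296 with doxycycline. Ntn4 (0.15 ± 0.25) overlapped as well.

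The promoters of the 4 genes that fell are shown because these members moved in the same direction. RefSeq's table on GRCm38.p6 held promoters for 46 of the 54 members, 60 promoters in all. The 250 bases before each start are printed, 5′ to 3′, with capitals at E-boxes (CANNTG, the core motif of basic helix-loop-helix factors) and at GC boxes (GGGCGG, the motif of Sp factors), each searched on both strands; overlapping matches were counted separately.
Sema3d, chr5:12382916-12383165, plus strand: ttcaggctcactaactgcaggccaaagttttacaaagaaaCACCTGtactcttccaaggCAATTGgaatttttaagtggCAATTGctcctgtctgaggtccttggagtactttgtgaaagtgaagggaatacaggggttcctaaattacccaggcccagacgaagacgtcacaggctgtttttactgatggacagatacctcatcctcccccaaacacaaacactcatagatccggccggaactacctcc
Sema5a, chr15:32244563-32244812, plus strand: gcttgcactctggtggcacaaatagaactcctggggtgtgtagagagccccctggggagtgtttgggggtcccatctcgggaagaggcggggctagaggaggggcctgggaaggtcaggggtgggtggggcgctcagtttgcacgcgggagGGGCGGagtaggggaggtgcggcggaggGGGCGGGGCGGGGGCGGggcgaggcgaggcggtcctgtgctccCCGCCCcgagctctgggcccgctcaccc
Ephb1, chr9:102354694-102354943, minus strand: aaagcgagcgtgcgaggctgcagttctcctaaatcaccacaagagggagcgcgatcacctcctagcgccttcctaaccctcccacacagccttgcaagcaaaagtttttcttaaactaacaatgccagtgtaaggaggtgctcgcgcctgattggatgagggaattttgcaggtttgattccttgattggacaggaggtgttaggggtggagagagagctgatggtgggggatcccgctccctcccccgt
Nrp2, chr1:62703067-62703316, plus strand: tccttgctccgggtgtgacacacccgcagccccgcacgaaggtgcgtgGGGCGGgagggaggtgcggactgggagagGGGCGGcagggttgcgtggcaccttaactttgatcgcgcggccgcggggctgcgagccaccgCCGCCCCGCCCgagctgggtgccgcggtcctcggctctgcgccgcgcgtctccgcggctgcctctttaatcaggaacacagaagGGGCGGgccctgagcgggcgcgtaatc
The 4 windows were unlike each other. Sema3d, with the largest fall, had 46.8% G and C, 4 CpG pairs, 3 E-boxes and no GC box, and Ephb1, with 54.0% G and C, had neither motif. Sema5a and Nrp2 had 5 GC boxes each, no E-box, and 72.0% and 72.4% G and C. An E-box was present in 40.0% of the members' promoters and in 66.2% of all 32851 promoters of RefSeq's table, and a GC box in 76.7% and 32.7%. The median content of G and C was 64.8% in the members' promoters and 52.4% in all. All promoters together cover 27025 genes, beside 11747 rows with read counts. The part of base composition and of this wider gene set in the motif shares was not tested. TAATTA, a core of many homeodomain factors' motifs, was searched as well: it was in none of these 4 windows, in 2 of the 60 member promoters (3.33%) and in 4.84% of all. These matches describe the letters in the windows only.

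Levels can be set side by side only per length of transcript, and the order depended on the length used. Per kilobase of coding sequence the highest member without doxycycline was Efnb2, with 2152 normalized counts per kilobase, followed by Efna5 with 2073 and Efna2 with 1699. Per kilobase of the whole transcript Plxnb2 was highest with 1183, followed by Sema6c with 1175 and Sema4c with 1062, and Efnb2 ranked 16. Over which length the authors counted reads is not given in the labels. Neo1, Sema4c, Plxna1, Plxnb2 and Efna4 were among the 10 highest by either length. Of the genes that fell, Nrp2 ranked 20 and 22 of 54 by coding and transcript length, Sema3d 24 and 30, Ephb1 31 and 28, and Sema5a 37 and 42. At the low end by coding length, Epha8, Sema3e, Epha1 and Sema4a without doxycycline were at 36.0 to 47.1 normalized counts per kilobase. By transcript length Sema3e, Epha8, Dcc and Unc5c were lowest, at 13.6 to 28.7.

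**Figure D3:**
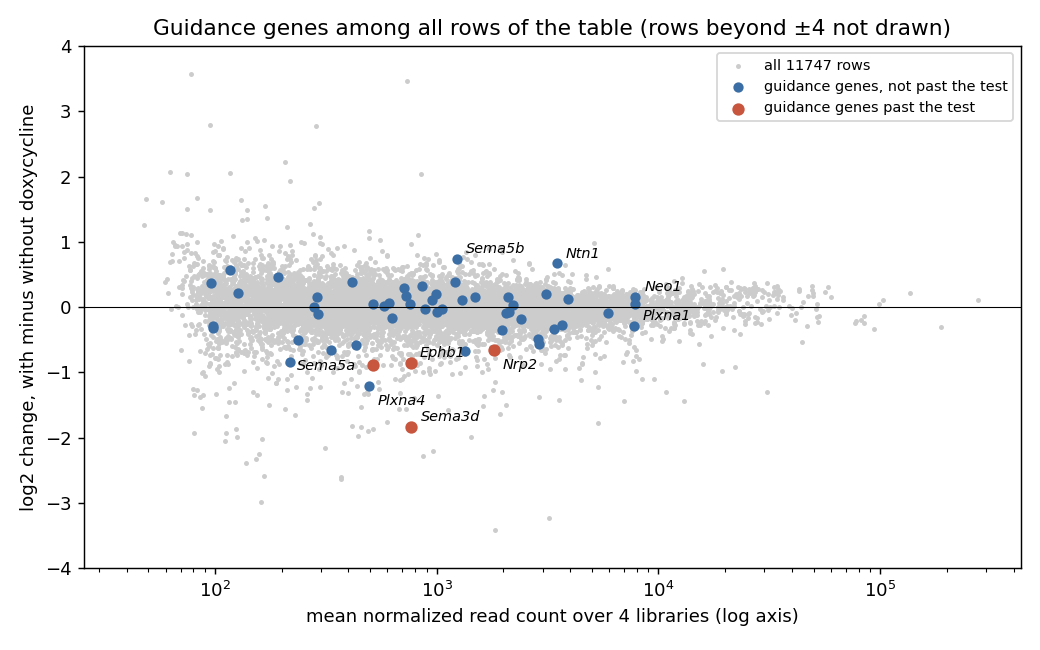
Log2 change, with minus without doxycycline, against the mean normalized read count over the 4 libraries (log axis) for all rows (grey) and for the guidance genes (blue: not past the test, red: past the test). The 4 red points lie below 0 at middle counts, and Neo1 and Plxna1, which are among the members with the highest counts, lie at 0.16 and -0.29.

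Of 52 listed effectors and adaptors of ephrin, semaphorin and netrin signalling, 3 fell, none rose and 49 did not pass, with 19 above and 33 below 0 and a median of -0.09. The share called was 5.77%, beside 2.37% of all rows. All 3 genes called belong to the collapsin response mediator family, proteins of the neuronal cytoskeleton known from semaphorin 3A signalling. Crmp1 was at 22072 and 18930 without and 11978 and 10513 with doxycycline and fell by 0.87 ± 0.10 on the log2 scale (limma, adjusted p = 0.0229). Dpysl3 fell by 0.85 ± 0.14 and Dpysl5 by 0.49 ± 0.07. The other listed genes of that family, Dpysl2 (-0.33 ± 0.08) and Dpysl4 (-0.10 ± 0.07), did not pass. Without library 8 none of the 52 effectors was called, without library 1 only Crmp1, and without library 2 Dpysl5 lost its call. Quantile normalization ended the calls of Dpysl3 and Dpysl5, robust empirical Bayes that of Dpysl3, and a fit without an intensity trend all 3. The actin regulator gene Evl had a value of -0.32 ± 0.06 (limma, adjusted p = 0.0572). Of 22 other listed guidance ligands, receptors and co-receptors 4 fell, none rose and 18 did not pass, with a median of -0.37. That is 18.2% called, beside 2.37% of all rows. Those that fell were Slit2 (-1.30 ± 0.15) and Slit3 (-0.99 ± 0.14), ligands of Robo receptors, the adhesion gene L1cam (-0.94 ± 0.11), and Ret (-1.51 ± 0.10). Ret, the receptor for GDNF family ligands, is also on the motor neuron list. Of these, Slit2 and Ret stayed called whichever library was left out, and Slit3 and L1cam lost their calls without library 8. Without an intensity trend only Ret kept its call.

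Most of the pan-neuronal and motor neuron genes, on lists chosen with earlier results of these data known, fell with doxycycline. The guidance genes differed both ways, with a median of -0.01. Of them 15 lay lower and 5 higher at an unadjusted p under 0.05 (limma), beside 11.5% and 9.58% of all rows. Of 12 pan-neuronal genes 11 fell, with a median log2 change of -0.89, and 5 still did so without library 8. Their summed normalized counts were 148873 to 167866 without and 66042 to 81854 with doxycycline. Of the 9 listed motor neuron genes 8 fell, 6 of them also without library 8, with a median of -1.57 and sums of 14274 to 15082 without and 5520 to 6379 with doxycycline. The exception, the homeobox gene Lhx3, was at 1352 and 974 without and 1819 and 1546 with doxycycline (0.55 ± 0.17; limma, adjusted p = 0.155) and was called higher without library 1. None of the 12 neural progenitor genes (median 0.23) or the 8 cell cycle genes (median 0.26) passed. All 8 cell cycle genes nonetheless lay higher in both libraries with doxycycline, as did 8 of the progenitor genes, while 2 progenitor genes lay lower, beside 26.7% of all rows higher without overlap. Single genes of these lists were called higher when 1 library was left out: Pax6 without library 1, Sox3 without library 2, and Fabp7 and Top2a without library 7. The part of these neuronal, progenitor and cell cycle genes' levels in the fall of Sema3d, Sema5a, Ephb1 and Nrp2 was not tested. Of 10 endothelial and mesoderm markers 8 were listed and none passed, while Pecam1 and Tie1 were not listed. The 8 listed genes summed to 4278 to 5828 without and 3603 to 4978 with doxycycline. Pdgfra alone was at 1829 and 3534 without and 1304 and 2666 with doxycycline. In 62.5% of these genes the groups did not overlap, beside 53.2% of all rows. Cdh5 (-0.72 ± 0.15) and Kdr (-0.85 ± 0.21) lay lower. Col1a1 (0.31 ± 0.11), Col1a2 (0.87 ± 0.28) and Pdgfrb (0.29 ± 0.15) lay higher, and 3 genes overlapped. Of 11 neural crest and glial markers 4 were listed; Ngfr fell (-1.43 ± 0.19) and Slc1a3 rose (0.52 ± 0.08). Ngfr lost its call without library 8, and Slc1a3 was not called when any 1 library was left out. The markers Sox10, Foxd3 and Gfap were among those not listed. None of the 7 listed pluripotency genes or the 8 endoderm genes passed.

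**Figure D4:**
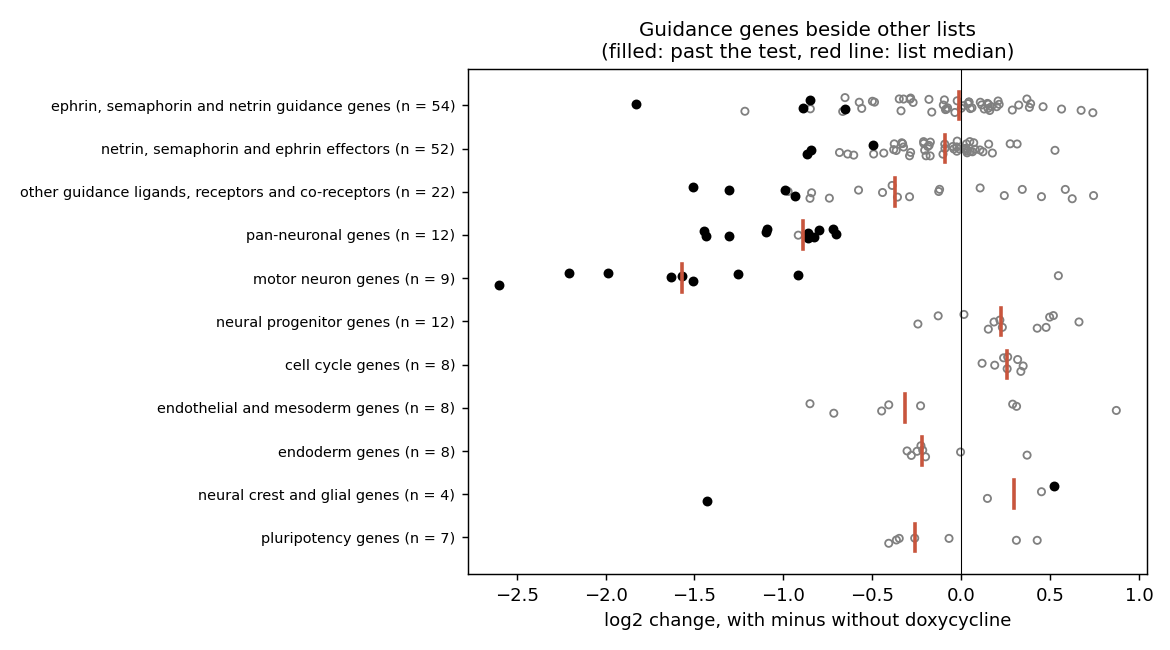
Log2 change, with minus without doxycycline, of the guidance genes and of the listed genes of 10 other lists; each point is a gene, filled points passed the test over all rows, and red lines are list medians. The guidance genes lie on both sides of 0 with a median of -0.01, and the medians of the pan-neuronal and motor neuron genes lie at -0.89 and -1.57.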

How the data were processed

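RNA from 4 libraries was sequenced on an Illumina HiSeq 2000 after TruSeq preparation, per the labels' protocols. CASAVA, TopHat2, HTSeq, DESeq and mm9 are named, without versions or roles, per the submitters' processing notes. The deposited signal is a normalized read count per gene, which, judging by the values, the authors obtained by scaling each library with 1 factor. All values lay within 0.1 steps of whole multiples of 1 step per library (0.894, 1.07, 1.18 and 0.882 in libraries 1, 7, 2 and 8), which gave estimated reads; no count test was run on them. No row stays under 101 estimated reads in all libraries, so unlisted genes cannot be called absent. Column initials gave the groups; column numbers are not the labels' replicate numbers. The labels do not say whether reads were counted by strand.

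Values were analysed as log2(normalized count + 1), which slightly understates changes of low genes, after a filter on a mean of at least 10 that removed no row, with limma 3.58.1 in R 4.3.3 (intensity trend, two-sided, Benjamini-Hochberg over 11747 rows, threshold 0.05; 2 residual and 3.83 prior degrees of freedom). All 54 members passed the filter. With 2 libraries per group the smallest exact permutation p is 0.333. Symbols came from the table or, for 375 rows, by accession from RefSeq on GRCm38.p6; lengths came from GENCODE M21 transcripts with the same accessions.

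The members and lists were chosen with earlier results of these data known. Members were described in full where they passed the test, had an unadjusted p under 0.05 or had the highest mean of their family. The induced gene is not reported here.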

Additional observations from a re-analysis of the deposited data

How the results depend on the processing

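Over all rows the number of calls was 278 (68 higher, 210 lower), and 4 members and 7 genes of the 2 other guidance lists were called. TMM scaling, quantile normalization, a filter on a mean of 50 and pseudocounts of 0.5 or 5 left the same 4 members called (fitting without a filter is the same fit, since the filter removed no row), and of all member directions only that of Dcc turned, to -0.006 (quantile normalization), where it was near 0 before. Without an intensity trend 105 rows (27 higher, 78 lower), 1 member (Sema5a, lower) and 2 list genes were called, Ret and, newly, Kdr. Quantile normalization left 5 of the 7 list genes called, without Dpysl3 and Dpysl5. Robust empirical Bayes called 419 rows (132 higher), 6 members (Sema6a and Sema6c added) and 11 list genes, without Dpysl3. Requiring a log2 change of at least 1 as well left 98 rows (21 higher, 77 lower), 1 member (Sema3d, lower) and 2 list genes.

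Leaving out 1 library at a time gave 44 to 494 calls over all rows (2 to 156 higher, 42 to 338 lower), 0 to 9 member calls (0 to 2 higher, 0 to 7 lower) and 2 to 12 list genes. A lone library is assumed to vary like the other group. Without library 8 no member was called; without library 7 Ntn1, Sema5b, Plxna4, Sema6a and Sema6c were added, and without library 2 Plxna4 was added. The 4 genes called kept their direction in each. The direction of 16 members turned in at least 1 of these fits, with ranges over the 4 fits of Dcc (-0.33 to 0.33), Efna2 (-0.077 to 0.033), Efna3 (-0.46 to 0.13), Epha1 (-0.080 to 0.51), Epha5 (-0.21 to 0.012), Ephb3 (-0.39 to 0.029), Ephb4 (-0.13 to 0.21), Ephb6 (-0.048 to 0.077), Ntn4 (-0.17 to 0.47), Plxna2 (-0.095 to 0.40), Plxnb2 (-0.018 to 0.11), Sema3c (-0.21 to 0.30), Sema3f (-0.16 to 0.093), Sema4a (-0.60 to 0.033), Sema6b (-0.096 to 0.20) and Unc5b (-0.20 to 0.33).

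With a replicate block that pairs library 1 with 2 and 7 with 8 by the order of the column numbers, 3508 rows (1636 higher, 1872 lower), 27 members (10 higher, 17 lower) and 46 list genes were called, 29.9% of all rows. The labels do not give this pairing. The deviations of libraries 1 and 7 from their group mean correlated with those of 2 and 8 across rows (r = 0.63; genes are not independent replicates). That fit has 1 residual degree of freedom and used 1 shared curve of spread for all genes, so its p-values were not used in the report.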
